A study of Mus musculus with 7 samples.

Results

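The genes described here are the 9 metabotropic glutamate receptor and Homer genes *Homer1*, *Homer2*, *Homer3*, *Grm2*, *Grm3*, *Grm4*, *Grm5*, *Grm7* and *Grm8*, taken by symbol from a table of 24346 genes. All 9 passed the filter of a mean of at least 1 FPKM (sequenced fragments scaled to transcript length and to the mapped reads of the library), as did 12988 genes in all. RNA-seq of the cerebral cortex was made from 7 male mice on a C57BL/6J background at postnatal day 100, with 1 library per animal. The 4 CrT-/y animals, numbered 0 to 3, carry a ubiquitous deletion of exons 5 to 7 of *Slc6a8*, the X-linked creatine transporter gene. The 3 CrT+/y animals, numbered 1 to 3, are wild-type littermates. Neither group received a treatment. Because the deletion is in all cells, the comparison does not separate effects that begin in neurons from those that begin elsewhere.

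Metabotropic glutamate receptors are G protein-coupled receptors that answer synaptically released glutamate more slowly than the ion channel receptors do. Group I receptors, such as the product of *Grm5*, sit mostly around the postsynaptic density and signal through Gq, phospholipase C and calcium release from internal stores. Group II (*Grm2*, *Grm3*) and group III (*Grm4*, *Grm7*, *Grm8*) receptors couple to Gi/o and mostly lower transmitter release from the terminals that carry them, while *Grm3* is also made by astrocytes. Homer proteins are scaffolds that bind group I receptors, Shank proteins and inositol trisphosphate receptors through one domain and join each other through a coiled coil. A short activity-induced form of *Homer1*, Homer1a, lacks the coiled coil and uncouples these partners.

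*Homer1*, the most abundant of the 3 Homer genes, was lower in CrT-/y animals, at 60.2% of the CrT+/y mean. The group II receptor gene *Grm3* and the group III receptor gene *Grm8* were lower too, at 81.4% and 81.8% of their CrT+/y means. *Grm5*, the group I receptor gene that encodes the main receptor partner of Homer, stood at 100.2% of its CrT+/y mean. In all, 3 of the 9 genes were called lower at an adjusted p-value under 0.1 (limma, Benjamini-Hochberg) and 0 were called higher, where 7.25% of all tested genes were called lower and 2.90% were called higher. The 6 others did not pass the test. At an unadjusted limma p-value under 0.05, 4 genes were lower, with *Homer2* as the fourth, and 0 were higher. The 7.25% and 2.90% are for the adjusted p-value, and the share of all tested genes at this unadjusted threshold is not given here. The median log2 fold change was -0.06 over the 9 genes and -0.03 over all tested genes.

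The regions before the start sites of the 3 called genes are shown because their messenger RNA levels are the ones that passed the test. They are taken from RefSeq on GRCm38.p6 and run to the base before the start site, except that the last 32 bases of the *Grm8* window lie in an annotated exon and are left out. The RefSeq starts are not always those of the GENCODE annotation. The *Homer1* window lies inside the GENCODE gene, which begins at 93299635. The bases just after the *Grm3* window lie in no GENCODE transcript. Capitals mark matches to the CRE half-site TGACG, the core of sites bound by CREB, and to the GC box GGGCGG, searched on both strands. The lines read 5′ to 3′ on the strand of the gene.
Homer1, chr13:93303507-93303756, plus strand: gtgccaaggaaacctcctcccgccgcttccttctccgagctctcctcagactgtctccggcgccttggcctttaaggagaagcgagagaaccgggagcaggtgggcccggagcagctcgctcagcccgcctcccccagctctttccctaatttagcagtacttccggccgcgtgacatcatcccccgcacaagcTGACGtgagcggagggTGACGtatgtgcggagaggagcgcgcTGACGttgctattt
Grm3, chr5:9725353-9725602, minus strand: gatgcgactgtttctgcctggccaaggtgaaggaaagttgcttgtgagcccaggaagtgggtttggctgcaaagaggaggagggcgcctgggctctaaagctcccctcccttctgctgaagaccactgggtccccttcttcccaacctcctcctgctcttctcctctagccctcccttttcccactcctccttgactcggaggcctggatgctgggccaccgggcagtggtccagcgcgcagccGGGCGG
Grm8, chr6:28135179-28135396, minus strand: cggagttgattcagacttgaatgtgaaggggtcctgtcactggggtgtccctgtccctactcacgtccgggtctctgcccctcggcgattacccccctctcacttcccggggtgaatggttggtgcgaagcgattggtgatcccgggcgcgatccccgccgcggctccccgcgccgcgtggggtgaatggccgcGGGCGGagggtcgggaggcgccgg

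The *Homer1* window held 3 CRE half-sites, whose first bases lie at positions -56, -40 and -14 counted back from the start site, and no GC box. Of 32851 RefSeq windows of 250 bases, 17.8% held a CRE half-site and 226, or 0.688%, held at least 3. The *Grm3* and *Grm8* windows shown held a GC box each, at positions -6 and -56, and no CRE half-site, and 32.7% of all windows held a GC box. A second RefSeq start of *Homer1*, with the window chr13:93307784-93308033, had neither match. Of the other two starts of *Grm8*, the window chr6:28134422-28134671 held a CRE half-site at position -24 and no GC box, and chr6:28126427-28126676 held neither. Across the 12 windows of the 7 genes that were listed, which leave out *Grm4* and *Grm5*, 7 held a GC box and 2 a CRE half-site. The windows of *Grm7* overlap and hold the same GC box, which is counted in each. The full CRE TGACGTCA, the E-box CACGTG and the EGR site GCGTGGGCG were in 0 of the 12 windows, against 1.55%, 6.02% and 0.536% of all windows. These matches describe letters in the windows and were not tested for binding.

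*Slc6a8* itself stood at 12.4, 14.9, 14.7 and 15.7 FPKM in CrT-/y animals 0 to 3 and at 32.3, 29.6 and 28.0 FPKM in CrT+/y animals 1 to 3, with no overlap (log2 fold change -1.05, SE 0.09, limma adjusted p = 0.00238). Its value covers the whole transcript, so reads from the exons outside the deletion still count. The number of genes above 0 FPKM was 17612 to 17821 in CrT-/y and 17207 to 17477 in CrT+/y libraries. The FPKM are not counts, and reads per library were not derived from them. Samples differed in markers of tissues beyond the cortex, and whether such tissue was carried over was not tested. Summed FPKM of 3 choroid plexus markers was 390 in CrT+/y animal 2 and 2.02 to 50.1 in the other 6, and summed FPKM of 7 striatal markers ranged from 109 in CrT+/y animal 1 to 428 in CrT+/y animal 2 and from 190 to 463 in CrT-/y animals. Summed FPKM of 4 olfactory bulb markers was 5.95 to 16.3 in CrT-/y and 2.91 to 5.24 in CrT+/y animals, without overlap between genotypes. Cerebellar markers summed to at most 0.470 FPKM. In bulk tissue, fewer cells of a type and less RNA per cell cannot be told apart.

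Levels of the 9 genes spanned from about 2 to over 70 FPKM, a scale already divided by transcript length. In CrT+/y animals the order was *Homer1* with a mean of 72.2 FPKM, *Grm5* with 41.3, *Grm3* with 40.8, *Grm2* with 25.6, *Grm7* with 17.5, *Homer2* with 12.2, *Grm4* with 9.54, *Grm8* with 7.40 and *Homer3* with 2.07. Neighbours in this order had separate ranges over the 3 animals, with the exception of *Grm5* and *Grm3*. In CrT-/y animals the order of the 9 was the same, but *Homer1*, at a mean of 43.5 FPKM, overlapped with *Grm5*, at 41.4. *Grm3* there, at 33.2 FPKM, was apart from *Grm5*, and *Homer2* and *Grm4*, at 10.2 and 9.35 FPKM, overlapped. *Grm6*, a receptor known from the retina, was listed at 0 in all 7 animals.

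**Figure D1:**
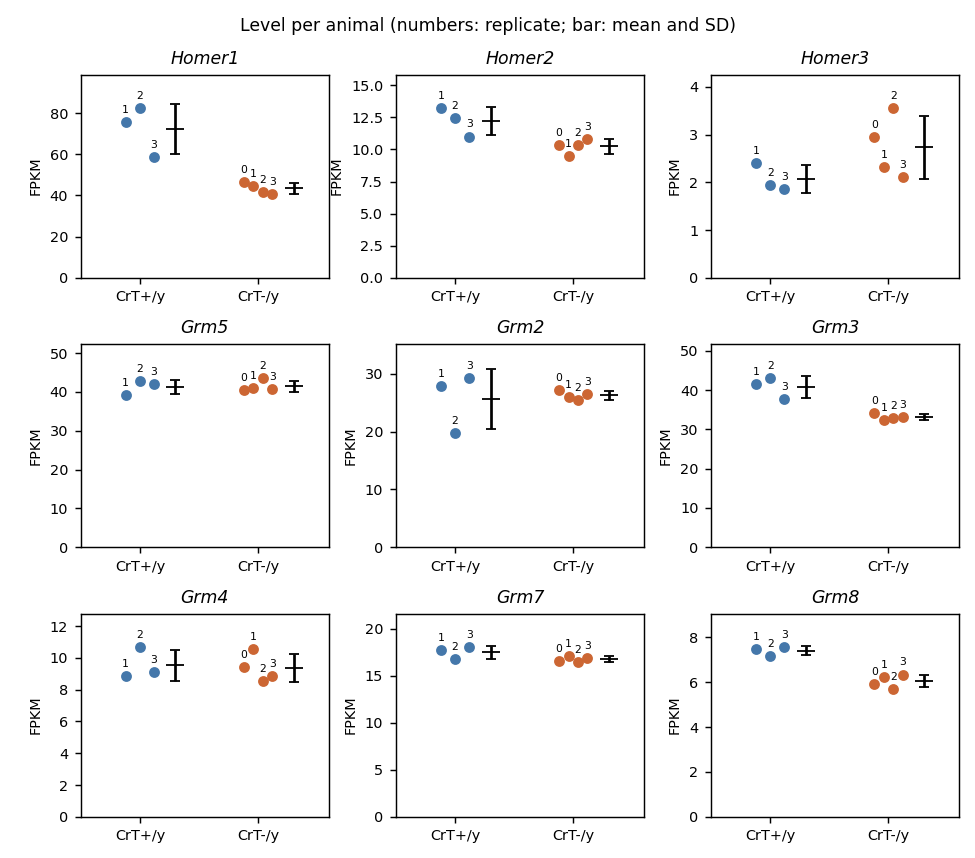
FPKM (vertical axes, each from 0) of the 9 genes by genotype, with each animal as a numbered point and the mean and SD as a black bar. All CrT-/y points lie below all CrT+/y points for *Homer1*, *Homer2*, *Grm3* and *Grm8*, and the groups overlap for the 5 other genes.

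Among the scaffolds, *Homer1* (chr13:93299635-93405129, GRCm38) measured 46.7, 44.5, 41.8 and 40.8 FPKM in CrT-/y animals 0 to 3 and 75.7, 82.3 and 58.5 FPKM in CrT+/y animals 1 to 3. Even the lowest CrT+/y animal, number 3, lay above every CrT-/y animal, and the CrT-/y values were close together. The log2 fold change was -0.72 (SE 0.11, 95% interval -0.96 to -0.48, limma adjusted p = 0.0253), which puts the CrT-/y level at 51.4% to 71.9% of the CrT+/y level. The call held under all 21 alternatives, with log2 fold changes from -0.86 to -0.62. It was close to the cut of 0.1 without CrT-/y animal 1 (limma adjusted p = 0.0988). Without CrT+/y animal 1 the adjusted p was 0.0773, and without CrT-/y animal 2 it was 0.0767. The exact permutation test of this gene alone gave p = 0.0286 (two-sided), the smallest that the 35 assignments of 4 and 3 animals can give. The annotation lists 12 *Homer1* transcripts, of which 11 are coding, and these values are per gene, so the short activity-induced form and the long scaffold forms were not separated.

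*Homer2* (chr7:81600481-81707527), the second scaffold by level, measured 10.3, 9.48, 10.3 and 10.8 FPKM in CrT-/y animals and 13.2, 12.4 and 11.0 FPKM in CrT+/y animals. The groups did not overlap, but CrT-/y animal 3 and CrT+/y animal 3 were close. Its log2 fold change of -0.25 (SE 0.08, 95% interval -0.43 to -0.07) did not pass (limma adjusted p = 0.102). It passed without CrT+/y animal 3 (log2 fold change -0.32, limma adjusted p = 0.0202), with array weights (adjusted p = 0.0659) and with a filter of a mean of at least 5 FPKM (adjusted p = 0.0856).

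*Homer3* (chr8:70282827-70294361), at a low level in this tissue, measured 2.95, 2.32, 3.55 and 2.10 FPKM in CrT-/y animals and 2.41, 1.95 and 1.85 FPKM in CrT+/y animals. The ranges overlapped, and the spread of 24.0% of the mean among CrT-/y animals was wider than that of the other 8 genes in either group. The log2 fold change of 0.36 (SE 0.18, 95% interval -0.05 to 0.77) did not pass (limma adjusted p = 0.251).

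Summed over the 3 Homer genes, FPKM was 56.4 ± 2.61 (SD, n = 4) in CrT-/y and 86.5 ± 13.3 (SD, n = 3) in CrT+/y animals. *Homer1* made up 75.1% to 79.0% of this sum in CrT-/y and 82.0% to 85.1% in CrT+/y animals. *Homer2* made up 16.8% to 20.1% in CrT-/y and 12.9% to 15.4% in CrT+/y animals, and *Homer3* 3.91% to 6.38% and 2.02% to 2.64%. Summed Homer FPKM was thus lower in CrT-/y animals, and the share of *Homer1* in it was lower in each of the 4 animals. These shares are free of the scaling between libraries.

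The group I receptor gene *Grm5* (chr7:87584168-88134907) measured 40.4, 40.9, 43.6 and 40.8 FPKM in CrT-/y animals and 39.3, 42.7 and 42.0 FPKM in CrT+/y animals. The ranges overlapped over most of their width. The log2 fold change was 0.004 (SE 0.05, limma adjusted p = 0.976), and its 95% interval of -0.12 to 0.13 covers levels from 92.1% to 109% of the CrT+/y level. The difference of *Homer1* lies outside that interval.

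The group II receptor gene *Grm3* (chr5:9485541-9725170) measured 34.3, 32.5, 33.0 and 33.2 FPKM in CrT-/y animals and 41.6, 43.1 and 37.8 FPKM in CrT+/y animals. The groups did not overlap, and the CrT-/y animals differed from each other by less than 2 FPKM. This gave a log2 fold change of -0.29 (SE 0.06, 95% interval -0.43 to -0.16, limma adjusted p = 0.0390). The call was lost without CrT-/y animal 1 (adjusted p = 0.127), CrT-/y animal 2 (adjusted p = 0.112) or CrT+/y animal 1 (adjusted p = 0.109), while the log2 fold change over all 21 alternatives stayed between -0.35 and -0.24. Of 6 astrocyte markers, cells in which *Grm3* is known to be made, 0 were called. Their median log2 fold change was -0.12, with summed FPKM of 816 to 890 in CrT-/y and 846 to 1027 in CrT+/y animals.

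*Grm2* (chr9:106643095-106656082), the other group II gene and mainly neuronal, measured 27.1, 25.9, 25.5 and 26.5 FPKM in CrT-/y animals and 27.8, 19.7 and 29.3 FPKM in CrT+/y animals. CrT+/y animal 2 stood below every other animal, and the CrT-/y animals lay between it and the other CrT+/y animals. The log2 fold change was 0.06 (SE 0.12, 95% interval -0.21 to 0.33, limma adjusted p = 0.801). Without CrT+/y animal 2, the library with the highest choroid plexus markers, it was -0.12 (limma adjusted p = 0.260). Summed striatal markers were 428 FPKM in that animal and 463 FPKM in CrT-/y animal 1, whose *Grm2* was 25.9 FPKM. Pearson's r of *Grm2* over the 7 animals was -0.85 with 3 thalamic, -0.69 with 2 choroid plexus and -0.53 with 7 striatal markers. After the group means were subtracted it was -0.92, -0.69 and -0.66. The part of other tissues in the *Grm2* value of CrT+/y animal 2 was not tested.

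Among the group III receptor genes, *Grm8* (chr6:27275119-28135178) measured 5.93, 6.23, 5.71 and 6.34 FPKM in CrT-/y animals and 7.48, 7.18 and 7.55 FPKM in CrT+/y animals. All CrT-/y animals were below all CrT+/y animals, with narrow ranges on both sides. Limma gave a log2 fold change of -0.29 (SE 0.07, 95% interval -0.44 to -0.13, limma adjusted p = 0.0569). The call was lost without CrT-/y animal 0, 1, 2 or 3 (adjusted p = 0.116, 0.145, 0.150 and 0.109) and without CrT+/y animal 1 (adjusted p = 0.142), at log2 fold changes from -0.31 to -0.26.

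*Grm7* (chr6:110645581-111567230), whose product sits at the release sites of terminals, measured 16.5, 17.1, 16.5 and 16.9 FPKM in CrT-/y animals and 17.7, 16.7 and 18.0 FPKM in CrT+/y animals. The ranges overlapped through CrT+/y animal 2. The difference on the log2 scale was -0.06 (SE 0.05, 95% interval -0.18 to 0.06, limma adjusted p = 0.514).

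*Grm4* (chr17:27422387-27521403) measured 9.43, 10.5, 8.55 and 8.87 FPKM in CrT-/y animals and 8.85, 10.7 and 9.12 FPKM in CrT+/y animals. The highest animals of both groups, CrT-/y animal 1 and CrT+/y animal 2, were also the ones with the highest striatal markers in their group. Over the 7 animals, Pearson's r between log2 *Grm4* and the mean level of the 7 striatal markers was 0.72, and it was 0.85 after the group means were subtracted, a description over libraries that share dissection and scaling. Some other marker lists gave r of like size with *Grm4*, at 0.52 and 0.93 for 2 olfactory bulb markers, 0.77 and 0.80 for 2 choroid plexus markers and -0.72 and -0.92 for 2 oligodendrocyte precursor markers, before and after the group means were subtracted. By genotype, the log2 fold change was -0.03 (SE 0.09, 95% interval -0.24 to 0.18, limma adjusted p = 0.875), and its sign turned positive under upper quartile scaling, median centring and the length correction.

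**Figure D2:**
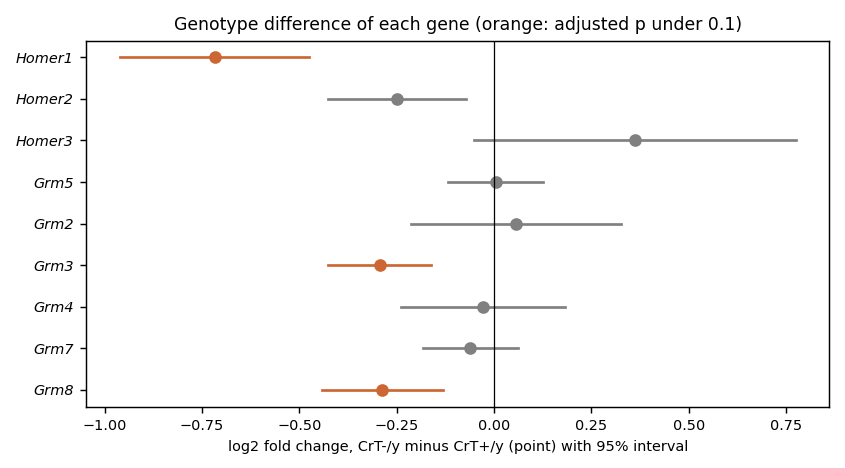
Log2 fold change of CrT-/y minus CrT+/y (horizontal axis) of each of the 9 genes as a point with its 95% interval from limma, orange where the adjusted p-value was under 0.1. The 3 called genes, *Homer1*, *Grm3* and *Grm8*, lie at -0.72, -0.29 and -0.29, and *Grm5* lies at 0.004.

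Exact permutation tests of single genes over the 35 assignments gave the smallest possible p = 0.0286 for the 4 genes without overlap, *Homer1*, *Homer2*, *Grm3* and *Grm8*, unadjusted for the 9 genes. The same exact permutation test gave p = 0.143 for *Grm7*, 0.171 for *Homer3*, 0.714 for *Grm4*, 0.886 for *Grm2* and 0.971 for *Grm5*. All 4 genes without overlap were lower in CrT-/y animals, a state found in 15.0% of all tested genes, and 0 of the 9 had all CrT-/y animals above all CrT+/y animals, as 6.57% of all tested genes did. Summed over the 6 receptor genes, FPKM was 133 to 134 in CrT-/y and 140 to 144 in CrT+/y animals.

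Ratios within an animal do not depend on how libraries are scaled to each other. The ratio of *Homer1* to *Grm5* was 1.15, 1.09, 0.958 and 1.00 in CrT-/y animals and 1.93, 1.92 and 1.39 in CrT+/y animals. In CrT-/y animals the FPKM of *Homer1* and *Grm5* were therefore close, and in every CrT+/y animal *Homer1* was the higher. The size of such a ratio also rests on the transcript lengths used for FPKM. Protein was not measured, so the ratio gives no proportion of scaffold to receptor. *Homer1* was also lower against *Homer2*, *Homer3*, *Grm2*, *Grm3*, *Grm4* and *Grm7* in every CrT-/y animal than in any CrT+/y animal, with mean log2 ratios that differed by -0.42 (to *Grm3*) to -1.08 (to *Homer3*). Against *Grm8* the ranges overlapped, at 6.35 to 7.76 in CrT-/y and 7.67 to 11.3 in CrT+/y animals. The ratio of *Grm2* to *Grm3* was 0.773 to 0.798 in CrT-/y animals and 0.669, 0.458 and 0.776 in CrT+/y animals 1 to 3, and these ranges overlapped.

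**Figure D3:**
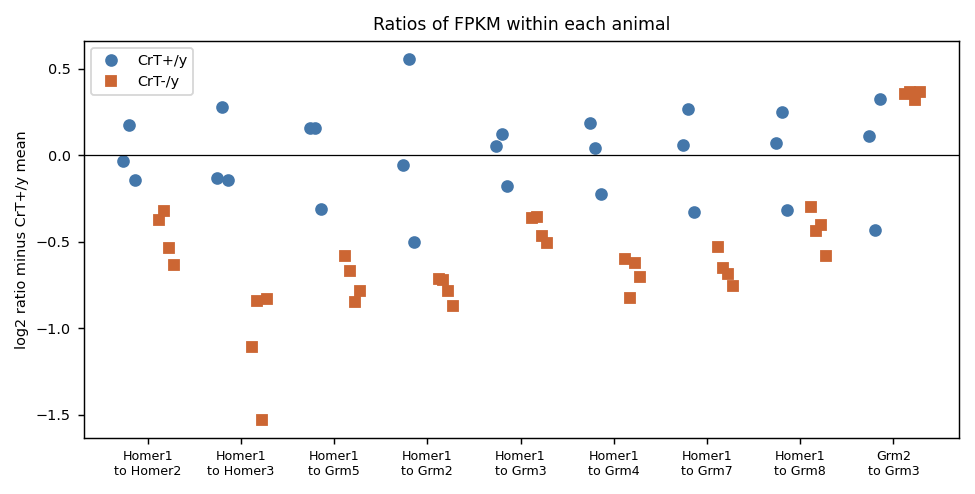
Log2 ratio of the FPKM of named gene pairs in each animal, minus the CrT+/y mean of that ratio (vertical axis), with CrT+/y animals as blue circles and CrT-/y animals as orange squares. For the *Homer1* ratios the squares lie below the circles with the exception of the ratio to *Grm8*, where the groups overlap, and the ratio of *Grm2* to *Grm3* overlaps as well.

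The postsynaptic partners of Homer were lower where they were called. Of 9 Homer binding partners tested, 3 were called lower and 0 higher, beside 7.25% and 2.90% of all tested genes, and the list had a median of -0.17 on the log2 scale. The 3 were *Shank1*, *Shank2* and *Shank3*, the scaffolds that tie Homer to the glutamate receptor complex of the postsynaptic density. *Shank1* measured 135, 117, 120 and 124 FPKM in CrT-/y animals and 192, 145 and 144 FPKM in CrT+/y animals (log2 fold change -0.36, SE 0.10, limma adjusted p = 0.0838). *Shank2* measured 33.4, 29.8, 33.3 and 31.8 FPKM in CrT-/y animals and 38.7, 36.9 and 40.3 FPKM in CrT+/y animals (log2 fold change -0.27, SE 0.06, limma adjusted p = 0.0503). *Shank3* measured 43.2, 42.0, 41.9 and 38.8 FPKM in CrT-/y animals and 47.5, 46.6 and 46.8 FPKM in CrT+/y animals (log2 fold change -0.18, SE 0.05, limma adjusted p = 0.0891). None of the 3 Shank genes overlapped between groups, and 15.0% of all tested genes had all CrT-/y below all CrT+/y animals. The calls were lost for all 3 under the length correction (adjusted p = 0.141, 0.143 and 0.233), without CrT-/y animal 1 (adjusted p = 0.209, 0.145 and 0.194), without CrT-/y animal 2 (adjusted p = 0.192, 0.112 and 0.193), without CrT-/y animal 3 (adjusted p = 0.156, 0.122 and 0.188) and without CrT+/y animal 1 (adjusted p = 0.155, 0.125 and 0.193). All 3 calls were also lost with the striatal marker level of each animal as a covariate (adjusted p = 0.162, 0.111 and 0.139). The same held under the replicate block (adjusted p = 0.110, 0.105 and 0.155) and that block with length correction (adjusted p = 0.152, 0.196 and 0.303). *Shank1* and *Shank3* were also not called without CrT-/y animal 0 (adjusted p = 0.111 and 0.123), nor *Shank3* without CrT+/y animal 2 (adjusted p = 0.137). Of the 21 alternatives, *Shank1* was called in 8, *Shank2* in 13 and *Shank3* in 6, with the direction lower in all of them. *Itpr1*, the calcium release channel that Homer links to *Grm5*, had means of 95.0 and 106 FPKM in CrT-/y and CrT+/y animals and did not pass (adjusted p = 0.195, limma).

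On the signalling side, 1 of 16 genes of the Gq route was called, *Plcb4*, a phospholipase C that acts after group I receptors, and the median log2 fold change of the list was -0.09. The share is near the 7.25% of all tested genes called lower. *Plcb4* measured 14.8, 14.8, 14.0 and 15.8 FPKM in CrT-/y animals and 24.3, 21.7 and 17.9 FPKM in CrT+/y animals, with no overlap (log2 fold change -0.51, SE 0.10, limma adjusted p = 0.0353). Its call was lost without CrT-/y animal 1 (adjusted p = 0.114) or 2 (adjusted p = 0.102) and under the replicate block with length correction (adjusted p = 0.102). *Plcb1*, the phospholipase C isoform of highest level in the list, had means of 64.0 and 69.0 FPKM in CrT-/y and CrT+/y animals and did not pass (adjusted p = 0.279).

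Of 14 genes of the Gi/o route used by group II and III receptors, 2 were called lower and 0 higher, beside 7.25% and 2.90% of all tested genes, and the list median was -0.09 on the log2 scale. They were *Kcnj6*, a subunit of the potassium channels opened by Gi/o receptors, and *Gnaz*, an alpha subunit of the Gi class. *Kcnj6* measured 13.8, 13.4, 12.6 and 15.9 FPKM in CrT-/y animals and 17.1, 17.2 and 18.7 FPKM in CrT+/y animals (log2 fold change -0.34, SE 0.08, limma adjusted p = 0.0583). *Gnaz* measured 28.8, 28.2, 29.3 and 29.6 FPKM in CrT-/y animals and 38.0, 33.3 and 32.6 FPKM in CrT+/y animals (log2 fold change -0.25, SE 0.06, limma adjusted p = 0.0612). Neither gene overlapped between groups, a state of 15.0% of all tested genes. The *Kcnj6* call was lost without CrT-/y animal 0, 1 or 2 or CrT+/y animal 1 (adjusted p = 0.111, 0.156, 0.144 and 0.133), and the *Gnaz* call without CrT-/y animal 0, 1, 2 or 3 or CrT+/y animal 1 (adjusted p = 0.122, 0.167, 0.144, 0.125 and 0.142) and under quantile normalization (adjusted p = 0.107). Both calls were also lost with the striatal marker level of each animal as a covariate (adjusted p = 0.121 for *Kcnj6* and 0.122 for *Gnaz*) and under the replicate block with length correction (adjusted p = 0.113 and 0.194), and that of *Gnaz* under the replicate block alone (adjusted p = 0.149).

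None of 12 genes of receptor desensitisation and trafficking (median log2 fold change -0.07) and none of 12 genes of glutamate and N-acetylaspartylglutamate supply and uptake (median -0.06) passed the limma test. At an unadjusted p-value under 0.05, 3 of the former were lower and 1 was higher, and 2 of the latter were lower. The latter include *Slc17a7*, the vesicular glutamate transporter of cortical terminals, with means of 595 and 610 FPKM in CrT-/y and CrT+/y animals, and *Slc1a2*, the main astrocytic glutamate transporter, with 505 and 564 FPKM. *Elfn1* and *Elfn2*, postsynaptic proteins that bind group III receptors across the cleft, did not pass either (adjusted p = 0.800 and 0.882, limma). Over these partner lists together, 6 of 63 genes were called lower and 0 higher, beside the 7.25% and 2.90% of all tested genes, and the median log2 fold change was -0.07. At an unadjusted limma p-value under 0.05, 1 of the 63 was higher. Lower at this threshold were 5 of 16 Gq genes, 5 of 14 Gi/o genes and 6 of 9 Homer binding partners, lists that share some genes. The share of all tested genes at this threshold is not given here. Of the 63 genes, 47 had a log2 fold change below 0, where the median over all tested genes was -0.03. The count of lower calls among the 63 depended on single animals: it was 2, 0, 0 and 2 without CrT-/y animals 0, 1, 2 and 3, and 1, 7 and 14 without CrT+/y animals 1, 2 and 3. Lower calls over all tested genes moved too, from 941 in the main setting to 450, 53, 166 and 254 without those CrT-/y animals. Without those CrT+/y animals they were 167, 509 and 2394. Among the 63, a gene was called higher, 1 each time, under quantile normalization, upper quartile scaling and the length correction and without CrT+/y animal 3. Of all tested genes, 528, 604, 575 and 1342 were called higher in these fits.

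**Figure D4:**
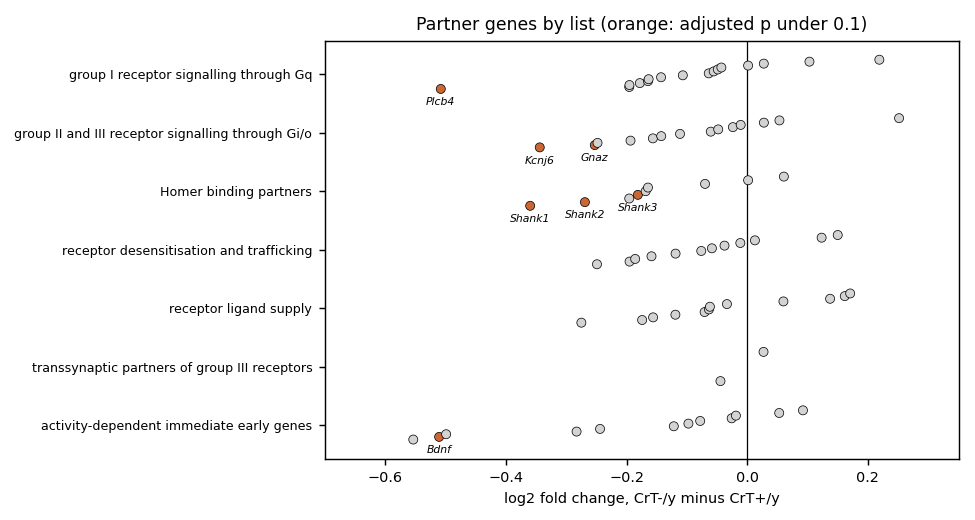
Log2 fold change of CrT-/y minus CrT+/y (horizontal axis) of the tested genes in the partner lists shown and in the list of activity-dependent genes, 1 point a gene, orange and named where the adjusted p-value was under 0.1. The called points all lie below 0 and are *Plcb4*, *Kcnj6*, *Gnaz*, *Shank1*, *Shank2*, *Shank3* and *Bdnf*.

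Some cell type and region markers differed between genotypes as well. The counts of these short lists stand beside 7.25% of all tested genes called lower and 2.90% called higher. Of 7 excitatory neuron markers, 2 were called lower, among them *Neurod6*. The median of the list was -0.21 on the log2 scale, with summed FPKM of 1540 to 1676 in CrT-/y and 1564 to 1910 in CrT+/y animals. Of 3 endothelial markers, 2 were called lower (*Flt1* and *Pecam1*), with a median of -0.31 and sums of 40.5 to 54.5 and 52.9 to 63.1 FPKM. Of 6 inhibitory neuron markers, 1 was called higher (*Gad1*), with a median of 0.08 and sums of 842 to 981 and 907 to 926 FPKM. The list was split in direction, with 2 of the 6 below 0. These were *Pvalb*, at a log2 fold change of -0.54 (limma adjusted p = 0.235), and *Sst*, at -0.05 (limma adjusted p = 0.765), and neither passed. Of 4 olfactory bulb markers, 2 were tested and 1 was called higher (*Cdhr1*), with sums of 5.95 to 16.3 FPKM in CrT-/y and 2.91 to 5.24 FPKM in CrT+/y animals. None of 4 oligodendrocyte, 2 oligodendrocyte precursor, 4 microglia, 7 striatal, 2 tested choroid plexus and 3 thalamic markers passed the test, nor did any of them, or of the astrocyte markers, at an unadjusted limma p-value under 0.05. Median log2 fold changes of these lists were -0.18, -0.09, 0.03, 0.61, -1.44 and 0.18, in that order. Over the 7 animals, Pearson's r of the mean excitatory marker level with *Homer1*, *Grm3* and *Grm8* was 0.72, 0.73 and 0.83, and after the group means were subtracted it was -0.02, 0.01 and 0.44. For the endothelial markers r was 0.82, 0.87 and 0.78, and 0.27, 0.50 and 0.06 after subtraction. For the 2 tested olfactory bulb markers r was -0.56, -0.65 and -0.70, and 0.54, 0.22 and 0.07 after subtraction. These are descriptions, and the part of the cell type and olfactory bulb markers in the differences of the 3 genes was not tested. With the striatal marker level as a covariate, an alternative chosen after seeing the data, the log2 fold changes were -0.76 for *Homer1* (limma adjusted p = 0.0454), -0.30 for *Grm3* (adjusted p = 0.0825) and -0.27 for *Grm8* (adjusted p = 0.117).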

How the data were processed

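Cortical poly(A) RNA of 4 CrT-/y (labelled KO) and 3 CrT+/y (labelled WT) mice was sequenced with paired-end reads, and groups and animal numbers follow the sample labels. The authors aligned reads to mm10 and deposited FPKM per gene and animal, scaled to transcript length and mapped reads; the submitters' processing notes name Bowtie and Cuffnorm, and versions are not given in the sources used here. The deposited table holds no counts, so no count model was used, and the reads per library that the authors list elsewhere were not used here. No sample column was left out (0 columns).

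Here, log2(FPKM + 0.1) was fitted on genotype with limma 3.58.1 (R 4.3.3) for every gene whose mean reached 1 FPKM, with a variance trend. P-values were adjusted over that whole set by the Benjamini-Hochberg method, and genes were called at an adjusted p-value under 0.1. Fold changes are on the log2(FPKM + 0.1) scale, which understates changes of low genes. The fit was tested on simulated data. Exact permutation tests (two-sided) used all 35 assignments. The rest was computed in Python 3.11.15 with pandas 2.3.3 and numpy 2.4.6. Positions come from GENCODE M21 (GRCm38, the build of mm10). Of the symbols, 23310 matched a current and 674 an older symbol, and 362 did not match.

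Named are the 9 genes, *Slc6a8*, the genes called in each partner list (the 4 of smallest p where more were called), the 5 genes most correlated with each called member over the 7 animals and the 5 after subtraction of group means. Some genes that this rule names are not reported here. Other partner, marker and receptor genes were named after their values were seen. The members, lists and motifs were chosen with earlier results of these data known. Alternatives were other pseudocounts, filters, scalings, a length correction, no variance trend, array weights, a block on the animal number, each animal left out and a striatal covariate.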

Additional observations from a re-analysis of the deposited data

Results flagged for a closer look

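In CrT-/y animals, *Grm5* was highest in animal 2, at 43.6 FPKM against 40.4 to 40.9 FPKM in the other 3. The gap to its nearest neighbour was 0.847 of the whole range, above the 95% critical value of Dixon's test for 4 samples. Of 10 genes examined in this way (the 9 genes and *Slc6a8*), 1 was marked, and chance marks about 1 in 20. The group of 3 CrT+/y animals was not examined. Without CrT-/y animal 2 the log2 fold change of *Grm5* was -0.02 (limma adjusted p = 0.875).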

How the results depend on the processing

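*Homer1* was called lower under all 21 alternatives, with a limma adjusted p of at most 0.0988, reached without CrT-/y animal 1. The number of the 9 genes called was 3 in the main setting, 2 with a replicate block and 2 with the striatal covariate, 4 with a filter of a mean of at least 5 FPKM (which leaves out *Homer3*) and 4 with array weights (*Homer2* is the added gene in both), 1 with the replicate block and length correction, and 1 to 4 with an animal left out. The count was 1 without CrT-/y animal 1, CrT-/y animal 2 or CrT+/y animal 1. Under the block, in which CrT-/y animal 0 has no partner and adds nothing, *Grm8* was not called (adjusted p = 0.138) and 576 genes were called in all. Numbers are shared by labels only: deviations from group means of same-numbered animals correlated at -0.08, 0.05 and -0.05 across genes, so the block was not taken as a pairing. With the length correction added, *Grm3* (adjusted p = 0.117) was not called either.

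The number of all genes called was 1318 in the main setting, 730 with no filter, 576 with the block, 358 with the block and length correction, 472 with the striatal covariate and 64 (without CrT-/y animal 1) to 3736 (without CrT+/y animal 3) with an animal left out. The share of higher calls was 28.6% in the main setting, 48.8% under quantile normalization, 54.8% under upper quartile scaling, 48.2% under median centring and 46.4% under the length correction, while the same 3 genes, *Homer1*, *Grm3* and *Grm8*, were called lower under each. The cause was not tested.

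Signs turned only for genes that never passed. *Grm4* was at 0.020 under upper quartile scaling, 0.0078 under median centring, 0.025 under the length correction and 0.020 under the block with length correction, and at -0.088 to 0.052 with an animal left out. *Grm5* was at -0.016 with the striatal covariate and at -0.033 to 0.028 with an animal left out, and *Grm2* at -0.12 to 0.16. Without a pseudocount the ratios kept their directions. With 7 animals and no counts, small differences cannot be separated from spread.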

Other observations

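Of 12 activity-dependent genes, the class that includes the short form of *Homer1*, 1 was called lower, *Bdnf*, a neurotrophin gene, and 0 were called higher, beside 7.25% and 2.90% of all tested genes. The median log2 fold change of the list was -0.11. *Bdnf* measured 8.45, 7.20, 9.42 and 7.01 FPKM in CrT-/y animals and 11.8, 12.6 and 9.98 FPKM in CrT+/y animals, with no overlap (log2 fold change -0.51, SE 0.12, limma adjusted p = 0.0539). The call was lost without CrT-/y animal 1 (adjusted p = 0.149), CrT-/y animal 3 (adjusted p = 0.122), CrT+/y animal 1 (adjusted p = 0.146) or CrT+/y animal 2 (adjusted p = 0.119). It was also lost with the striatal covariate (adjusted p = 0.102). *Arc* and *Egr1* had overlapping groups, with log2 fold changes of -0.55 and -0.50 (SE 0.32 and 0.27, limma adjusted p = 0.316 and 0.282).

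The genes whose levels over the 7 animals were most like those of *Homer1* were *Dym*, *Stk4*, *Vezf1*, *Fam120a* and *Wipf2* (Pearson's r from 0.989 to 0.994). Those of *Grm3* were *Zmynd8*, *Phrf1*, *Dnajc3*, *Ttll5* and *Utp6* (r from 0.990 to 0.992), and those of *Grm8* were *Bbs9*, *Canx*, *Slc52a3*, *Cct5* and *D430041D05Rik* (r from 0.983 to 0.991). These values hold the difference between genotypes. After the group means were subtracted, the nearest were *2810403A07Rik*, *Myh11*, *Col27a1*, *Ap1s2* and *Sh3kbp1* for *Homer1* (r from 0.985 to 0.998), *Stt3a*, *Cav1*, *Scg2* and *Swap70* for *Grm3* (r from 0.988 to 0.998), and *Lrrc8b*, *Khk* and *Tdrp* for *Grm8* (r from 0.980 to 0.992). *Homer1* and *Grm3* followed each other with r of 0.99, and of 0.92 after the group means were subtracted. All r are over 7 animals whose values share scaling and dissection, and are descriptions only.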
